A study of Rattus norvegicus with 14 samples.

Results

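The response to allopregnanolone (Allo) was measured by RNA-seq in primary hippocampal neuron cultures, with 8 of the 14 libraries of the study, 4 from Allo-treated and 4 from vehicle-treated cultures. Libraries were chosen by their labels alone, and the expression values played no part in the choice. The cells were taken from the hippocampi of embryonic day 18 Sprague Dawley rats and reached day 10 in culture before they were moved to AM medium, a medium with less B27 supplement that the study uses as a model of aging. After 4 h in that medium, the AM-Veh group received vehicle (0.001% ethanol) and the AM-Allo group received 100 nM Allo, both for 16 h and still in AM medium. AM medium is shared by both groups, so no library analysed here shows the cells outside that medium. The labels call each library a primary neuron sample and number it 1-1, 1-2, 2-1 or 2-2, without saying what either number stands for. Libraries with the same first number are called a set below, with 2 AM-Veh and 2 AM-Allo libraries in each of 2 sets.

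Allo is a metabolite of progesterone made in the brain by neurons and glia. It acts as a positive modulator of the GABA-A receptor, a chloride channel opened by GABA, and prolongs its opening. In a mature neuron chloride flows in and the cell is inhibited. In an immature cell that keeps much chloride, imported by the cotransporter NKCC1, chloride leaves and the cell is depolarized, which can open L-type calcium channels. Calcium entry and synaptic activity are known to switch on immediate-early genes such as Fos and Egr1, and then slower genes for secreted peptides and for proteins that dampen kinase signaling, partly through the transcription factor CREB and its DNA site, the CRE.

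Values are normalized counts per gene. Judged from the lowest values, libraries held about 19600000 to 25200000 reads on genes, and genes of mitochondrial DNA took 5.61% to 6.06% of counts. A gene was tested if its mean was at least 10 normalized counts, which kept 15314 of 18239 genes, and p-values were adjusted over those 15314. The cultures held more than neurons. Of the neuron markers Map2 stood at 24729 normalized counts in AM-Veh, Dcx at 12383 and Tubb3 at 9014.5, while the astrocyte genes Gfap and Slc1a3 stood at 94233 and 60228, the radial glia gene Fabp7 at 50637, and Cnp and Olig1 of the oligodendrocyte lineage at 14336 and 14684. These counts are not divided by transcript length and do not rank the genes. Markers of microglia were sparse, with 8 of the 12 that are listed below the minimum, none of them at 0 in all libraries, and Tmem119 at 17.2. In such bulk libraries, fewer cells of a type and less RNA per cell cannot be told apart.

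Relative to AM-Veh, 57 genes rose and 47 fell in AM-Allo, with the set as a block in limma and an adjusted p under 0.05. These are 0.372% and 0.307% of the genes tested, 0.679% together. Among genes listed with a gene name rather than an identifier, the largest falls were those of Agbl1, Rem2, Vgf, Crhbp and Rgs4, and the largest rises were those of Gpr139, Rnf152, Plcxd2, Cbln1 and St8sia2. Most changes were small. The median size was 0.35 on the log2 scale among genes that fell and 0.226 among those that rose, and 4 of the 104 genes passed 1 while 31 lay under 0.2. At an unadjusted p under 0.05, 882 genes were higher and 802 lower (5.76% and 5.24%), 11% of all genes tested. Whatever the p, 49.2% of all genes tested were higher in AM-Allo. The median log2 fold change over all genes was 0.0014 in set 1 and −0.0056 in set 2. The block decides much of the adjusted count, since the fit without it called 4 genes (0.0261%), Plcxd2 higher and Dusp4, Rgs4 and Hivep2 lower, and left 872 genes (5.69%) at an unadjusted p under 0.05. The way limma lets the error vary with mean expression decides it too, and without that trend 1 gene was called, while all 104 kept an unadjusted p under 0.05. Leaving out 1 library gave 57, 76, 46 and 37 calls without AM-Allo 1-1, 1-2, 2-1 and 2-2, and 169, 46, 45 and 90 without AM-Veh 1-1, 1-2, 2-1 and 2-2. Of the 104 genes, 28 were called in all 8 of these fits, 5 in none, and none changed direction.

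**Figure D1:**
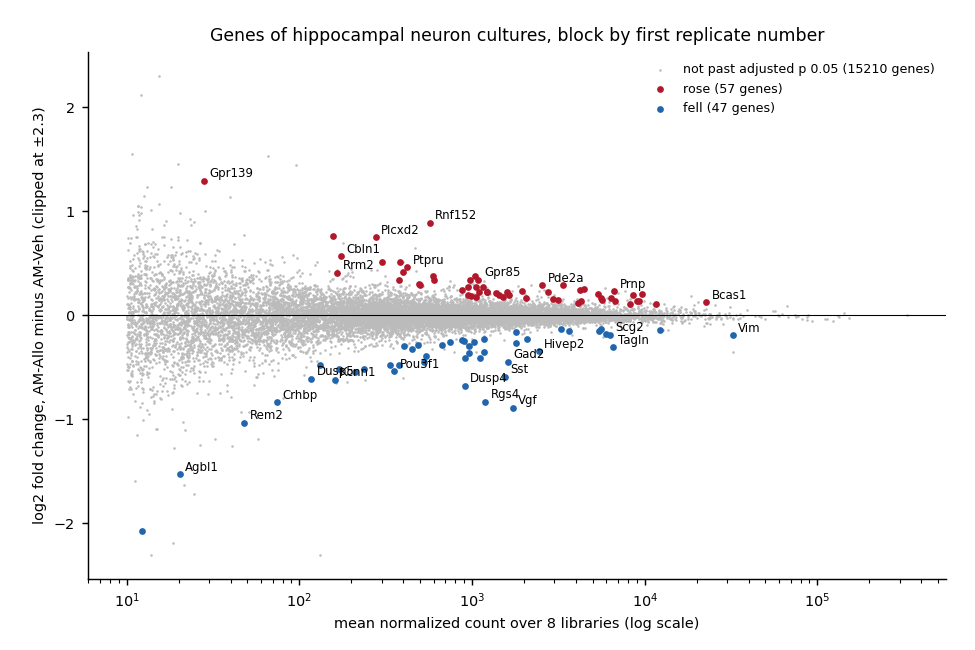
Mean normalized count over the 8 libraries (log axis) against the log2 fold change of AM-Allo relative to AM-Veh for the genes tested, with 57 genes that rose in red, 47 that fell in blue and all other genes in gray. Most colored points lie within 0.5 of the zero line, the falls reach further down than the rises reach up apart from Gpr139, and the spread of gray points widens toward low counts.

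Of the 104 genes, 101 had AM-Allo and AM-Veh libraries that did not overlap within either set, against 17.0% of all genes tested. Over all 8 libraries 72 did not overlap, against 3.95%. The same values made the call, so these counts describe the genes and add no test. Each of the 104 moved in the same direction in both sets, as did 8003 of the 15314 genes tested. The call was made over both sets, so this agreement adds no test either. The size of the change differed by set, with 45 of the 57 rises larger in set 2 (median log2 fold change 0.174 in set 1 and 0.311 in set 2) and 29 of the 47 falls larger in set 1 (median −0.359 and −0.299).

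The falls with the smallest p-values included genes that dampen growth factor and G protein signaling. Dusp4, the gene with the smallest p-value, encodes a nuclear phosphatase that inactivates ERK and other MAP kinases. It stood at 1132, 1020, 1215 and 1091 normalized counts in AM-Veh libraries 1-1, 1-2, 2-1 and 2-2, and at 648, 636, 785 and 725 in the AM-Allo libraries of the same numbers. Every AM-Allo library lay below every AM-Veh library, and the gene fell 1.597-fold (log2 fold change −0.68, standard error 0.052, adjusted p = 2.47e-05). Rgs4, a GTPase-activating protein that shortens signaling by Gq- and Gi-coupled receptors, had 1559, 1409, 1692 and 1436 normalized counts in AM-Veh and 833, 714, 909 and 982 in AM-Allo, again with no overlap (log2 fold change −0.83 and adjusted p = 2.47e-05).

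Other genes with these functions were looked at from gene lists. All lists were chosen with earlier results of these data known, so their counts describe the genes and add no test. Of 20 ERK feedback inhibitors tested, 3 fell and none rose, against 0.307% and 0.372% of all genes. Beside Dusp4 these were Dusp5, a phosphatase specific for ERK (142 ± 20.6 in AM-Veh and 92.6 ± 13.3 in AM-Allo, SD, n = 4, log2 fold change −0.61), and Spred3, an inhibitor of Ras to Raf signaling (443 ± 52.4 and 316 ± 14, SD, n = 4, log2 fold change −0.48). The list did not move as a whole, since 10 members were higher and 10 lower and the median was −0.00074. Of 15 RGS genes tested, Rgs4 and Rgs2 fell (Rgs2 log2 fold change −0.32), 7 were higher, 8 lower and the median was −0.011. The call for Dusp5 was kept in 1 of the 8 fits that leave out 1 library, with an adjusted p of up to 0.183, and the calls for Dusp4, Rgs4 and Spred3 in all 8. That for Rgs2 was kept in 4.

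Vgf, which encodes the precursor of secreted peptides and is induced by neurotrophins and activity, had the 4th smallest p-value. Its normalized counts were 1975, 1921, 2508 and 2457 in AM-Veh and 1010, 824, 1729 and 1369 in AM-Allo. All AM-Allo libraries were below all AM-Veh libraries, and within each group the libraries of set 2 were the higher ones (log2 fold change −0.89, standard error 0.085, adjusted p = 0.000133). Scg2, the precursor secretogranin II of dense-core vesicles, differed far more between sets than between groups, at 4196 and 3913 in AM-Veh and 3360 and 3479 in AM-Allo of set 1, and at 8886 and 9595 in AM-Veh and 8181 and 8640 in AM-Allo of set 2. Within each set both AM-Allo libraries were lower, and Scg2 fell by 0.19 on the log2 scale, a call kept in 3 of 8 leave-one-out fits. Other genes of peptide signaling that fell were named after their values were seen. They were Adcyap1, which encodes PACAP (log2 fold change −0.48), and Crhbp, which encodes the binding protein of corticotropin-releasing hormone (−0.84). Also among them was Pam, the enzyme that amidates peptide hormones (−0.13), a call kept in 2 of 8 leave-one-out fits. The calls for Adcyap1 and Crhbp were kept in all 8.

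Promoters of the genes that changed were searched for the full CRE, TGACGTCA, which reads the same on both strands. A promoter here is the stretch from 250 bases before to 50 after the annotated start of a gene in RefSeq on the GRCr8 assembly, and 10398 of the tested genes have one, among them 37 that fell and 39 that rose. The full CRE was found in 3.08% of all promoters, in 3 of the 37 of genes that fell (8.11%) and in 1 of the 39 of genes that rose. The 4 promoters are shown because they place the CRE of each gene, with the CRE in capitals, read 5′ to 3′ on the strand of the gene. They are chr12:25276971-25277270 on the minus strand for Vgf, chr11:90461296-90461595 on the plus strand for Sst, chr9:88256817-88257116 on the minus strand for Scg2 and chr5:149308784-149309083 on the minus strand for Ptpru, the gene that rose.
Vgf: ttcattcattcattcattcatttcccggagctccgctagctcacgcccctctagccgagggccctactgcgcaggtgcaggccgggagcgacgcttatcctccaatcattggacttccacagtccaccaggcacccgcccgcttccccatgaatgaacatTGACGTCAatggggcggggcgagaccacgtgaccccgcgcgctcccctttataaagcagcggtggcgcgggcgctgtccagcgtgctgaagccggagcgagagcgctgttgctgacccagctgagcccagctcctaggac
Sst: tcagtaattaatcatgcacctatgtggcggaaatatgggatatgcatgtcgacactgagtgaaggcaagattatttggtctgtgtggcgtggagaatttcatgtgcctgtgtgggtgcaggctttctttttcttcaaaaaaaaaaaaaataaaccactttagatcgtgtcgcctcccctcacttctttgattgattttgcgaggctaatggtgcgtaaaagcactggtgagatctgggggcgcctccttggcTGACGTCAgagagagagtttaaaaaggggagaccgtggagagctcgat
Scg2: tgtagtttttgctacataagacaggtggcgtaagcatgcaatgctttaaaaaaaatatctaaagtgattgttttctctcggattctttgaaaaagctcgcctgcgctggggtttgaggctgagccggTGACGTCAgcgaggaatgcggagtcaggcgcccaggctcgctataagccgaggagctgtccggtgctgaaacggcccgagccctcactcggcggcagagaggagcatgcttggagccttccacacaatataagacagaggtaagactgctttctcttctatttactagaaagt
Ptpru: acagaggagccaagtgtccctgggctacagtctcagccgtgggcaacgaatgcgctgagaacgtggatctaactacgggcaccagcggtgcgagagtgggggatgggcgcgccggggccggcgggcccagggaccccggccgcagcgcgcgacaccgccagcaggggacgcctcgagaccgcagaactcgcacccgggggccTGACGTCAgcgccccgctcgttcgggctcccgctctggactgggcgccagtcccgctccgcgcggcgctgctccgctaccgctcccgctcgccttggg
The CRE began 90 bases before the annotated start of Vgf, 123 before that of Scg2 and 48 before that of Ptpru, and 2 bases after that of Sst. The annotated starts were not checked against where transcription begins, so these distances hold for the annotation only. With counts this small the shares describe these windows only.

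The shorter CRE core TGACG, searched on both strands and contained in the full CRE, was in 31.2% of all promoters, 37.8% of those of genes that fell and 38.5% of those that rose. The site of EGR factors, GCGNGGGCG on either strand, was in 10.4% of all promoters, in 8 of the 37 of genes that fell (21.6%) and in 2 of the 39 of genes that rose. The 8 were Vgf, Dusp5, Gad1, Hivep2, Reln, Baiap2, Vim and Ddah1, and the 2 were Tubb3 and Ugt8. These counts are small too, and the shares of this and the other sites were not tested. The AP-1 site TGANTCA was in 4.65% of all promoters, 5.41% of those of genes that fell and 5.13% of those that rose. A serum response element was in 1.28% of all promoters and in those of Dusp5 and Sema3c among genes that changed, and an NRF1 site, present in 1.86% of all promoters, was in none of either group.

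Of 28 immediate-early transcription factor genes, 22 were lower in AM-Allo and 6 higher, with a median log2 fold change of −0.11 against −0.0015 over all genes tested. At an unadjusted p under 0.05, 9 were lower and 1 higher, against 5.24% and 5.76% of all genes, and none passed after adjustment by limma. Egr4 stood at 29.9, 26.6, 31.0 and 29.2 normalized counts in AM-Veh and at 26.4, 9.99, 10.1 and 10.5 in AM-Allo, where library 1-1 lay close to AM-Veh and the other 3 well below it (log2 fold change −1.11 and adjusted p = 0.127). Egr1 ranged from 415.5 to 463 in the AM-Allo libraries, and stood at 447, 516, 725 and 708 in AM-Veh, so that the groups differed in set 2 alone (log2 fold change −0.06 in set 1 and −0.78 in set 2). That difference between sets had an adjusted p of 0.0388.

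The list of activity-regulated effector genes had a median of −0.099, with 17 of 26 genes lower. Vgf, Scg2 and Rgs2 fell and no gene of the list rose, against 0.307% and 0.372% of all genes. Cdkn1a, which encodes the cell cycle inhibitor p21, was at 7748 ± 383 normalized counts in AM-Veh and at 7060 ± 461 in AM-Allo (SD, n = 4, adjusted p = 0.219). The list median was −0.11 in set 1 and −0.062 in set 2.

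**Figure D2:**
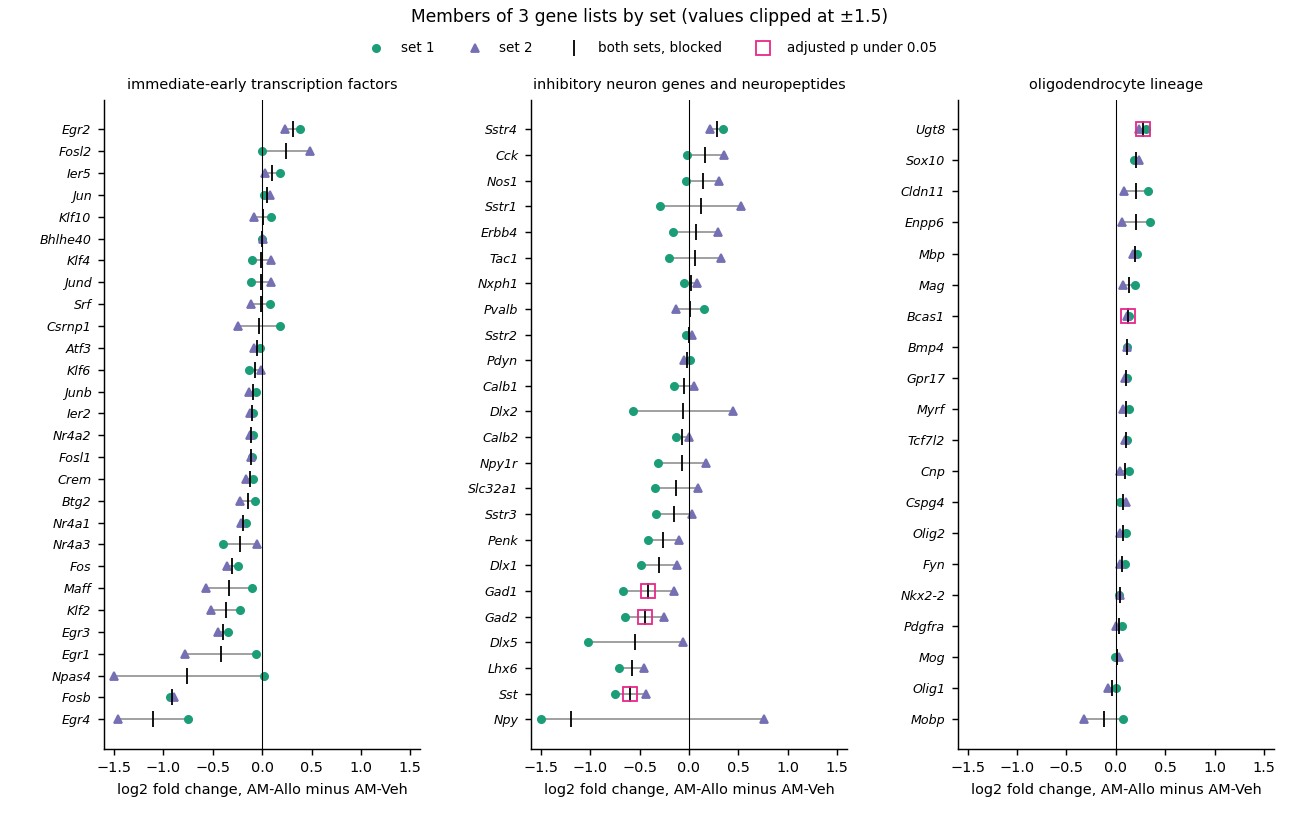
Log2 fold change of AM-Allo relative to AM-Veh for members of 3 lists, with set 1 as circles, set 2 as triangles, the blocked value over both sets as a bar and a square around genes past an adjusted p of 0.05. Most immediate-early genes lie left of zero, the inhibitory neuron genes lie further left in set 1 than in set 2, and the oligodendrocyte genes lie close together just right of zero.

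Among genes of inhibitory neurons, Gad1, Gad2 and Sst fell. Gad1 and Gad2 encode the 2 enzymes that make GABA from glutamate, and Sst encodes somatostatin, the peptide of a class of hippocampal interneurons. Sst was at 1683, 1598, 2114 and 1994 normalized counts in AM-Veh and at 1112, 855, 1671 and 1380 in AM-Allo, lower in both AM-Allo libraries of each set (log2 fold change −0.59 and adjusted p = 0.00452). Gad2 was at 1655, 1634, 2212 and 1882 in AM-Veh and at 1122, 981, 1849 and 1595 in AM-Allo, with the gap wider in set 1 (log2 fold change −0.65) than in set 2 (−0.25). Gad1 fell by 0.67 in set 1 on the log2 scale and by 0.16 in set 2, where AM-Allo 2-1 at 1290 exceeded AM-Veh 2-2 at 1280. The adjusted p over both sets was 0.0178 for Gad2 and 0.0392 for Gad1.

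Of the 25 inhibitory neuron and neuropeptide genes tested, these 3 fell and none rose, against 0.307% and 0.372% of all genes. The list did not move as one, with 10 members higher and 15 lower. The list median was −0.29 in set 1 and 0.031 in set 2, a gap wider than that of any other list, and −0.06 over both. Reln, the extracellular glycoprotein secreted by Cajal-Retzius cells and interneurons, also fell (1949 ± 286 in AM-Veh and 1639 ± 383 in AM-Allo, SD, n = 4, log2 fold change −0.27). The calls for Gad1 and Reln were kept in 2 of 8 leave-one-out fits, that for Gad2 in 4 and that for Sst in 8. Slc32a1, the vesicular GABA transporter, had an adjusted p of 0.7.

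Receptors and channels gave few calls. Of 14 GABA-A receptor subunit genes none passed, and the list median was −0.062 in set 1 and 0.19 in set 2. Gabra3 had the smallest p-value (262 ± 14.9 in AM-Veh and 312 ± 47.8 in AM-Allo, SD, n = 4, adjusted p = 0.285). Gabrb1 came next (351 ± 59.1 and 405 ± 20.4, SD, n = 4, adjusted p = 0.35). The log2 fold change of Gabrb1 was 0.011 in set 1 and 0.43 in set 2. Of 11 genes for chloride cotransporters and their WNK kinases none passed, and Slc12a2, which encodes NKCC1, was at 3066 ± 95.3 and 2901 ± 209 (SD, n = 4, adjusted p = 0.374). Of 63 potassium channel genes 2 fell, against 0.307% of all genes. These were Kcnn1, a small-conductance calcium-activated channel (log2 fold change −0.62), and Kcnf1, a modulatory subunit of Kv2 channels (−0.52). The list did not move as a whole, with 31 members higher, 32 lower and a median of −0.0083. Rem2, a small GTPase that restrains voltage-gated calcium channels, was at 88.2, 52.0, 55.1 and 63.9 normalized counts in AM-Veh and at 29.9, 32.0, 25.5 and 35.3 in AM-Allo and fell 2.047-fold. Its call and that of Kcnf1 were each kept in 2 of 8 leave-one-out fits, with an adjusted p of up to 0.0925 and 0.132, and that of Kcnn1 in 6.

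None of the 21 voltage-gated calcium channel genes passed, and the list median was −0.029 in set 1 and 0.096 in set 2. The smallest p-values were those of Cacna1e, the R-type channel (605 ± 13.7 in AM-Veh and 718 ± 70.4 in AM-Allo, SD, n = 4, adjusted p = 0.0704), and Cacna2d3, an auxiliary subunit (adjusted p = 0.163). Of 18 ionotropic glutamate receptor genes 15 were higher and none passed, with Grin3a at an adjusted p of 0.0924. Of 28 monoamine and acetylcholine receptor genes none passed. Htr1a, the serotonin 1A receptor, had 11.3 to 17.1 normalized counts in AM-Veh and 23.0 to 30.0 in AM-Allo with no overlap (adjusted p = 0.089), and Hrh3, the histamine H3 receptor, had a log2 fold change of 0.48 (adjusted p = 0.103).

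The orphan receptors Gpr139 and Gpr85, which lie outside the lists, rose. Gpr139, which couples mainly to Gq, was at 8.995, 17.6, 18.3 and 18.8 normalized counts in AM-Veh and at 29.8, 36.97, 38.1 and 54.8 in AM-Allo (log2 fold change 1.29 and adjusted p = 0.0233). Its call was kept in 3 of 8 leave-one-out fits. Gpr85, also called SREB2, was at 962, 938, 1020 and 924 in AM-Veh and at 1087, 1194, 1320 and 1274 in AM-Allo (log2 fold change 0.34 and adjusted p = 0.00512). For both genes every AM-Allo library exceeded every AM-Veh library.

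Among enzymes, Plcxd2, a little studied protein with a phospholipase C X domain, rose with no overlap, from 210, 194, 202 and 215 normalized counts in AM-Veh to 338, 302, 353 and 395 in AM-Allo (log2 fold change 0.75, standard error 0.077, adjusted p = 0.000301). It was the one call among 25 phospholipase C and diacylglycerol kinase genes, while 0.372% of all genes tested rose. Rnf152, a lysosomal ubiquitin ligase that acts on the mTORC1 pathway, was at 325, 364, 423 and 430 in AM-Veh and at 491, 514, 952 and 1062 in AM-Allo. All AM-Allo libraries were above all AM-Veh libraries, and the rise was 0.55 on the log2 scale in set 1 and 1.24 in set 2, a difference with an adjusted p of 0.0388. Pde2a, a phosphodiesterase of cAMP that cGMP activates, rose as well, from 2250, 2229, 2447 and 2262 to 2530, 2654, 3049 and 3022 (log2 fold change 0.29).

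**Figure D3:**
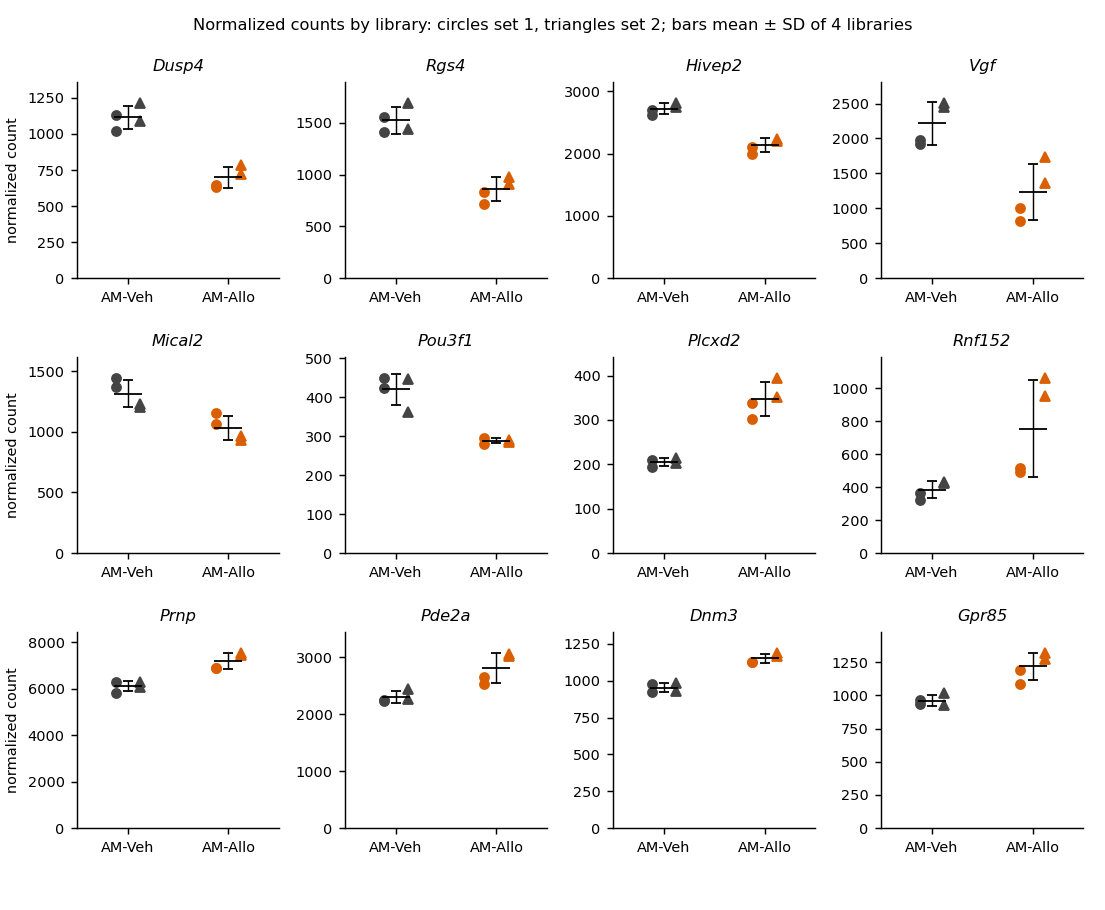
Normalized counts by library for the 6 falls and 6 rises with the smallest p-values, each panel starting at 0, with AM-Veh in gray and AM-Allo in orange, set 1 as circles, set 2 as triangles, and bars for mean ± SD of 4 libraries. In all 12 panels the libraries of the groups stand apart, and the libraries of Rnf152 and Vgf also split by set.

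Cbln1, Dnm3, Prnp and St8sia2, which are in no list, rose. Cbln1, a secreted protein that bridges neurexins and delta glutamate receptors, was at 138, 155, 144 and 122.9 normalized counts in AM-Veh and at 191, 194, 240 and 207 in AM-Allo (log2 fold change 0.57 and adjusted p = 0.0223). Dnm3, a neuronal dynamin that pinches off membrane vesicles, was at 981, 922, 981 and 928 in AM-Veh and at 1128, 1128, 1166 and 1189 in AM-Allo (log2 fold change 0.27), with a gap between the groups larger than the range within either. Prnp, the prion protein of the neuronal surface, was at 6270, 5831, 6287 and 6087 in AM-Veh and at 6890, 6872, 7536 and 7456 in AM-Allo (log2 fold change 0.23 and adjusted p = 0.00187). St8sia2, which adds polysialic acid to the adhesion molecule NCAM, was at 314 ± 48.8 in AM-Veh and at 456 ± 113 in AM-Allo (SD, n = 4, log2 fold change 0.51), with overlap between the sets but not within them.

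Of 41 synaptic adhesion genes, 35 were higher in AM-Allo and 15 were higher at an unadjusted p under 0.05, against 5.76% of all genes. Cadm1, the adhesion molecule SynCAM 1, was the one that rose (2546 ± 87.8 in AM-Veh and 2990 ± 327 in AM-Allo, SD, n = 4, log2 fold change 0.23). Over all genes tested, 49.2% were higher and 0.372% rose. The median of the adhesion list was 0.037 in set 1 and 0.09 in set 2. Of 45 synaptic vesicle and release genes, 34 were higher and Syt4, a synaptotagmin that does not bind calcium tightly, rose (4047 ± 332 and 4877 ± 932, SD, n = 4, log2 fold change 0.25). Here the sets parted, with a list median of −0.042 in set 1 and 0.18 in set 2. The call for Syt4 was kept in 2 of 8 leave-one-out fits. Of 27 postsynaptic scaffold genes 16 were higher and none passed, with a list median of −0.053 in set 1 and 0.095 in set 2.

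Among 60 axon guidance genes 2 rose and 1 fell, against 0.372% and 0.307% of all genes. Epha4, a receptor for ephrins, and Sema5a, a transmembrane semaphorin, rose by 0.22 and 0.17 on the log2 scale, and the secreted semaphorin Sema3c fell by 0.25. Fat4 rose among 31 cadherins and protocadherins (log2 fold change 0.23). The call for Epha4 was kept in 1 of 8 leave-one-out fits, with an adjusted p of up to 0.183, those for Sema5a and Fat4 in 2 and that for Sema3c in 3. Of the tubulins, Tubb3, the neuronal beta-tubulin, rose from 9014.5 ± 484 to 10406 ± 696 (SD, n = 4, log2 fold change 0.21), and Tubb4a rose by 0.19. Ptpru, a receptor tyrosine phosphatase, rose from 354 ± 22.3 to 487 ± 34.1 (SD, n = 4, log2 fold change 0.46), and Islr2, a membrane protein of growing axons, by 0.38. Leaving out 1 library kept the calls for Tubb4a and Ptpru in 8 of 8 fits, that for Islr2 in 3 and that for Tubb3 in 2.

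Against 49.2% and 0.372% of all genes, 9 of 16 neuron marker genes tested were higher and Tubb3, the one call, rose. Their summed normalized counts ranged from 79620 to 89610 in AM-Veh and from 85860 to 94310 in AM-Allo, and their median log2 fold change was −0.046 in set 1 and 0.12 in set 2. The part of this sum in the results for synaptic and axon genes was not tested.

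Transcription factors moved both ways. Hivep2, a large zinc finger protein that binds enhancers of the NF-kappaB type, was at 2700, 2612, 2811 and 2748 normalized counts in AM-Veh and at 2109, 1997, 2208 and 2239 in AM-Allo. The groups lay well apart and the spread within each was small (log2 fold change −0.35, standard error 0.030, adjusted p = 5.53e-05). Its relative Hivep1 fell by 0.23 on the log2 scale, a call kept in 3 of 8 leave-one-out fits. Pou3f1, a POU domain factor also called Oct6, was at 423, 450, 446 and 363 in AM-Veh and at 281, 296, 284 and 291 in AM-Allo (log2 fold change −0.54 and adjusted p = 0.00368).

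Mef2c, a calcium-responsive factor of neuronal development, was higher in each set and rose (3835 ± 318 in AM-Veh and 4565 ± 575 in AM-Allo, SD, n = 4, log2 fold change 0.25 and adjusted p = 0.00729). Hdac9, a class IIa deacetylase that binds MEF2 factors and represses them, fell with no overlap, from 615, 648, 627 and 543 to 410, 418, 501 and 448.5 (log2 fold change −0.45). Of 26 histone deacetylase and methyl-CpG genes, Hdac9 was the one that fell and Sirt2, a deacetylase abundant in oligodendrocytes, the one that rose (log2 fold change 0.13, a call kept in 3 of 8 leave-one-out fits). Of the 58 neuronal transcription factor genes 1 rose and 3 fell, against 0.372% and 0.307% of all genes. The list was balanced, with 31 higher and 27 lower.

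Genes of the oligodendrocyte lineage were higher in AM-Allo by small and similar amounts. Of 21 tested, 19 were higher, 14 of them at an unadjusted p under 0.05 (5.76% of all genes), and 2 rose (0.372% of all genes). Ugt8, the enzyme that makes the myelin lipid galactosylceramide, was at 1089, 994, 971 and 1144 normalized counts in AM-Veh and at 1265, 1311, 1209 and 1268 in AM-Allo, with no overlap (log2 fold change 0.27 and adjusted p = 0.0233). Bcas1, a marker of oligodendrocytes that begin to myelinate, was at 20720, 20390, 22170 and 23790 in AM-Veh and at 22420, 22760, 24790 and 24760 in AM-Allo, apart within each set but not across them (log2 fold change 0.12 and adjusted p = 0.0276). Mbp, the myelin basic protein, had a log2 fold change of 0.19 and did not pass (adjusted p = 0.0621). The median of the list was 0.1, higher than that of any other list, and 0.12 and 0.069 in sets 1 and 2. The summed counts were 102200 to 107700 in AM-Veh and 108400 to 113100 in AM-Allo. The calls for Ugt8 and Bcas1 were each kept in 2 of 8 leave-one-out fits.

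Fasn, the fatty acid synthase, and Dgat2, an enzyme of triglyceride synthesis, are in no list and were chosen after their values were seen. Fasn rose (8819 ± 543 in AM-Veh and 9712 ± 424 in AM-Allo, SD, n = 4, log2 fold change 0.14), and its call was kept in 7 of 8 leave-one-out fits. Dgat2 rose by 0.19, a call kept in 2 of 8. Of 31 genes of cholesterol synthesis and uptake 24 were higher and none passed, with Insig1 at a log2 fold change of 0.14 (adjusted p = 0.129) and Hmgcs1 at 0.13 (adjusted p = 0.195). Of 21 proliferation genes 16 were higher and 1 rose, against 49.2% and 0.372% of all genes. It was Rrm2, the small subunit of ribonucleotide reductase (log2 fold change 0.41). Counts of Rrm2 went from 142 ± 19.4 to 189 ± 28.3 (SD, n = 4). That call was kept in none of the 8 leave-one-out fits, and Mki67 had an adjusted p of 0.317.

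Most genes of reactive glia were slightly lower, and 2 fell. Vim, the intermediate filament of astrocytes and progenitors, was at 27100, 29740, 39620 and 41660 normalized counts in AM-Veh and at 25650, 25160, 34760 and 34800 in AM-Allo. Set 2 stood above set 1 in both groups, and within each set AM-Allo was lower (log2 fold change −0.19 and adjusted p = 0.00729). Of 16 reactive astrocyte genes 15 were lower, and Vim and S1pr3, a sphingosine-1-phosphate receptor, fell (S1pr3 log2 fold change −0.23). Over all genes tested, 0.307% fell. The call for S1pr3 was kept in 1 of 8 leave-one-out fits and that for Vim in 8. Of 13 general astrocyte genes 11 were lower and none passed, and Gfap had an adjusted p of 0.662. The median of these 13 was 0.021 in set 1 and −0.081 in set 2. Their summed counts ranged from 233000 to 291500 in AM-Veh and from 233100 to 282500 in AM-Allo.

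Several genes that bind actin, named after their values were seen, were also among those that fell. Mical2, an enzyme that oxidizes actin, was at 1444, 1368, 1232 and 1208 normalized counts in AM-Veh and at 1154, 1065, 968 and 935 in AM-Allo (log2 fold change −0.35 and adjusted p = 0.000618). Tagln, the actin-bundling transgelin of smooth muscle and mesenchymal cells, fell by 0.31 on the log2 scale. Msn (moesin) fell by 0.18, Actn1 (alpha-actinin 1) by 0.16 and Ezr (ezrin) by 0.15. Leaving out 1 library kept the calls for Mical2 and Tagln in 8 of 8 fits and that for Msn in 7. The call for Ezr was kept in 4 and that for Actn1 in 1, where the adjusted p reached 0.183. Apart from Tagln, 11 genes of the endothelial, mural and mesenchymal cell list did not pass, and 9 of the 12 tested were lower. Over all genes tested, 0.307% fell. Summed counts of the list were 7409 to 9874 in AM-Veh and 6515 to 8111 in AM-Allo. The list median was 0.018 in set 1 and −0.18 in set 2. Col3a1 had the largest positive value of that list (log2 fold change 1.44 and adjusted p = 0.217), with an SD above the mean in both groups (51.6 ± 61.9 and 140 ± 201, n = 4).

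Housekeeping and stress lists had no call apart from Tef, a circadian output factor that rose by 0.15, a call kept in 3 of 8 leave-one-out fits. Of 79 nuclear genes of oxidative phosphorylation 58 were lower, with a median of −0.021, and of 12 mitochondrially encoded genes 10 were lower, with a median of −0.032. Of 74 cytosolic ribosomal protein genes 63 were lower (median −0.024), and of 27 heat shock genes 23 were lower (median −0.036), with Hspb1 and Dnajb1 at adjusted p-values of 0.189 and 0.241. Of 23 genes of neurosteroid synthesis and steroid sensing none passed even at an unadjusted p under 0.05. Star, which imports cholesterol for steroid synthesis, was at 25.2 ± 6.18 in AM-Veh and at 19.0 ± 2.81 in AM-Allo (SD, n = 4).

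**Figure D4:**
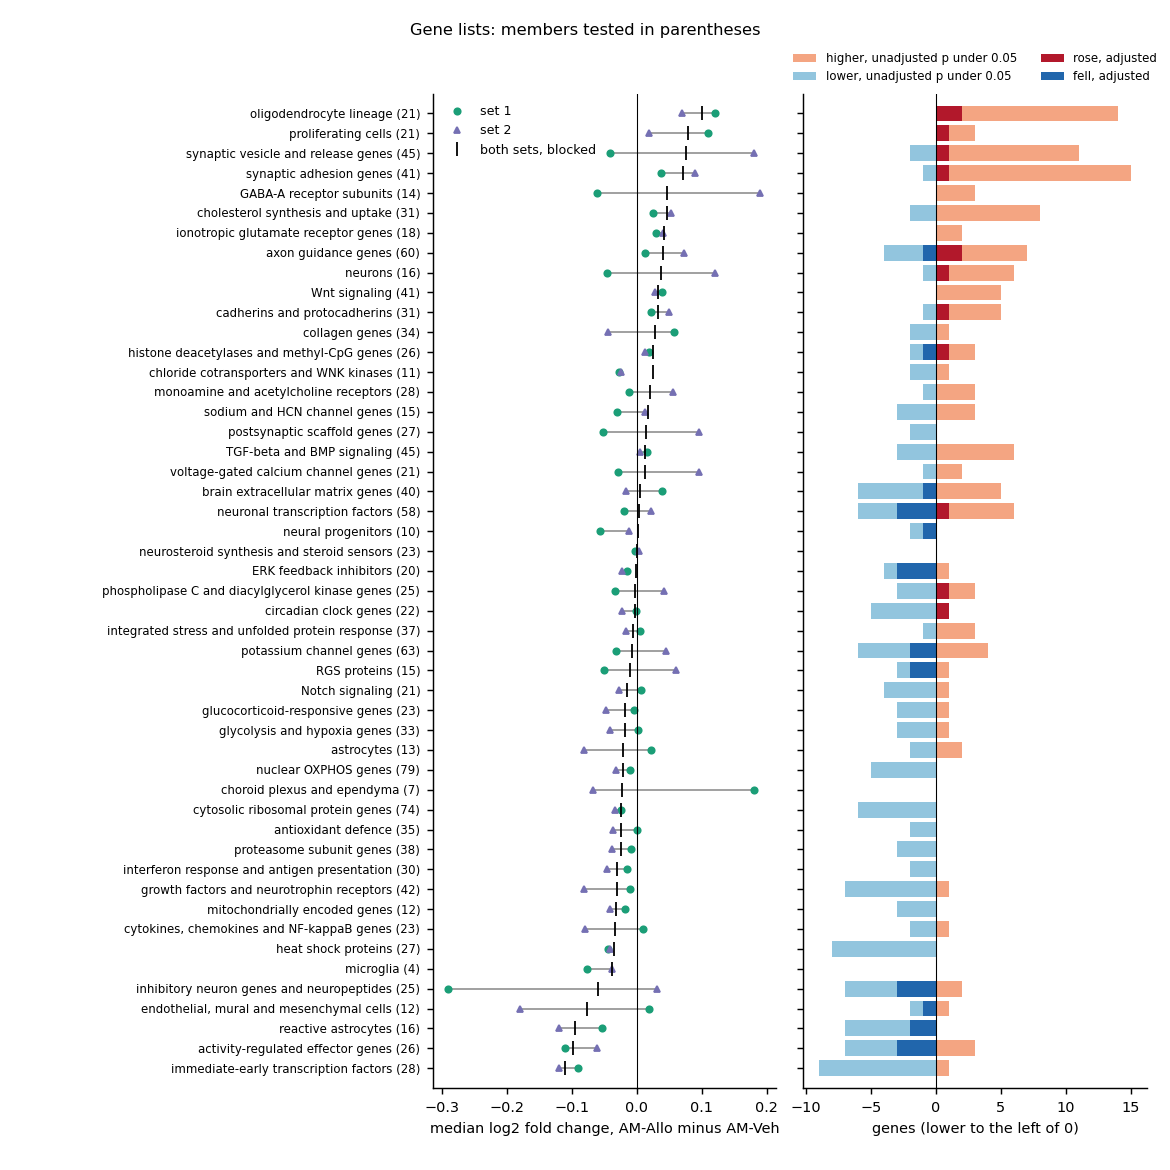
For 49 gene lists (members tested in parentheses), the left panel shows the median log2 fold change in set 1, in set 2 and over both sets, and the right panel counts the members at an unadjusted p under 0.05 (light) and those past adjustment (dark), lower to the left of 0 and higher to the right. List medians run from −0.11 to 0.1, and 29 of the 49 lists hold no gene past adjustment.

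Of the 104 genes, 34 belonged to one of the 49 lists and 70 to none. Among the 44 rises in no list were Smg1, a kinase of nonsense-mediated decay (log2 fold change 0.29), Wfs1, the wolframin of the endoplasmic reticulum (0.28), Stk32c, a kinase (0.41), Slc44a5, of the choline transporter-like family (0.51), and Kif3b, a kinesin motor (0.16). The 26 falls in no list included Agbl1, a carboxypeptidase of the tubulin deglutamylase family, which was at 36.1, 37.6, 27.4 and 22.1 normalized counts in AM-Veh and at 11.3, 9.92, 8.89 and 9.14 in AM-Allo, the largest fall among named genes (log2 fold change −1.53 and adjusted p = 0.0085). Others were Rcan2, an inhibitor of calcineurin (−0.29), Gng4, a G protein gamma subunit (−0.39), and Lgi2, a secreted protein of the LGI family (−0.41). Leave-one-out fits kept the calls for Agbl1, Rcan2 and Gng4 in 8 of 8 and that for Lgi2 in 2. Among the rises they kept Stk32c in 7, Smg1 and Wfs1 in 5, Slc44a5 in 3 and Kif3b in 2. A gene listed by identifier alone, ENSRNOG00000049829, had the largest fall of all 104 (20.4 ± 7.95 to 4.11 ± 2.03, SD, n = 4, log2 fold change −2.07), and 6 of the 104 were listed that way.

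The sets were also compared directly. Within set 1 alone 34 genes passed an adjusted p of 0.05 (14 higher or 0.0914% of genes, 20 lower or 0.131%, 0.222% together), and within set 2 alone 267 passed (203 higher or 1.33%, 64 lower or 0.418%, 1.74% together). Of the 34, 32 had the same direction in set 2 and 21 of these an unadjusted p under 0.05 there (61.8% of the 34). Of all genes, 7.04% were higher and 5.49% lower at such a p in set 2, 12.5% in either direction. Of the 267, 184 had the same direction in set 1 and 72 an unadjusted p under 0.05 (27.0%), while 11 had one in the opposite direction. All genes had such a p in set 1 in 7.97% of cases, 4.19% higher and 3.79% lower. Of the 20 genes called lower in set 1, 16 were lower in set 2 at an unadjusted p under 0.05 (all genes 5.49%), and of the 14 called higher, 5 were higher there (all genes 7.04%). These shares were not tested against each other. Dusp4, Hivep2, Mical2, Plcxd2, Pou3f1, Rgs4, Rnf152, Sst and Vgf passed adjustment in each set alone. Over all genes the log2 fold changes of the sets had a Pearson r of 0.0961, a description across genes of 1 normalization.

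The Allo effect differed between sets for 12 genes at an adjusted p under 0.05 (0.0784% of genes), and for 9.53% of genes at an unadjusted p under 0.05. Egr1 and Rnf152 are given above. Ly6h, a membrane-anchored neuronal protein of the Ly6 family, was at 1858 and 1859 normalized counts in AM-Veh and 1665 and 1485 in AM-Allo of set 1, and at 1754 and 1536 in AM-Veh and 2109 and 2128 in AM-Allo of set 2, thus lower with Allo in one set and higher in the other. Dlg2, which encodes the scaffold PSD-93, had a log2 fold change of −0.14 in set 1 and 0.38 in set 2, and Pde1a, a calmodulin-activated phosphodiesterase, of 0.093 and 0.76.

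**Figure D5:**
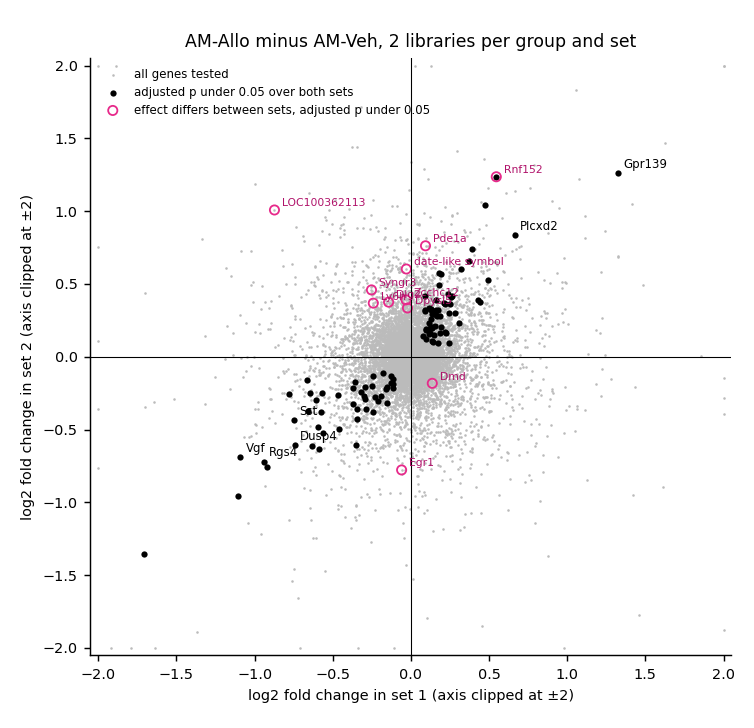
Log2 fold change of AM-Allo relative to AM-Veh in set 1 (x axis) and in set 2 (y axis), both axes clipped at ±2, with all tested genes in gray, the 104 genes past adjustment in black and the 12 genes whose effect differed between sets circled. Black points lie in the lower left and upper right of the plot, gray points show little alignment, and the circled genes lie off the diagonal, with LOC100911516 beyond the plotted range.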

How the data were processed

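RNA was taken from primary rat hippocampal neuron cultures, and stranded poly(A) libraries were sequenced with paired 150-base reads. Per the labels and the study's methods, the authors quantified transcripts with Salmon 0.14 against Ensembl 95, summed them to genes with tximport 1.6.0 and deposited normalized counts from DESeq2 1.18.1 (a signal with no whole-number counts left) and variance-stabilized log2 values. In the log2 values the authors had removed the difference between sets, to a median gap of 2.5e-10 against 0.088 in log2 normalized counts, so they served as an alternative only.

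Genes with a mean of at least 10 were tested on log2(normalized count + 1) with limma 3.58.1 in R 4.3.3 (trended moderation, the first replicate number as block, 5 residual degrees of freedom, two-sided, Benjamini-Hochberg over all 15314 genes). Fold changes on this scale understate changes of low genes. The difference of the Allo effect between sets was also tested, as an interaction of treatment and set. The code was tested on simulated data, and 22 alternatives were tried. AM-Veh and AM-Allo libraries of the same set deviated together (r from 0.185 to 0.296). Deviations were taken from each group mean over both sets. A positive r within sets therefore makes r across sets negative on average (−0.319 to −0.15), which is no separate result. The labels do not say that libraries came from separate cultures, so p-values measure the spread between these libraries, which may be technical.

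Genes named are the 15 largest changes in each direction with no overlap within either set, the 6 smallest p in each direction, the called members of each list or else its 2 smallest p, the main markers and up to 5 genes that differed between sets. Other called genes, Mbp, Slc32a1 and the gene given by identifier were chosen after their values were seen. The figure of list members leaves out 2 members that are not reported here. The comparison and the gene lists were chosen with earlier results of these data known. Spreadsheet software had turned 21 symbols into dates. The astrocyte libraries were not used here. Promoters came from RefSeq on GRCr8, and no genome coordinates of the authors' build were used.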

Additional observations from a re-analysis of the deposited data

Results flagged for a closer look

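In 14 of 374 groups of 4 libraries, over 187 genes, 1 library stood far from the other 3 (3.74%). The rule flags about 1 in 20 groups by chance when all 4 libraries are alike. These groups mix 2 sets and most genes were picked by their values, so that rate is no baseline here. Among called genes, Gpr139 was at 8.995 normalized counts in AM-Veh 1-1 against 17.59 to 18.76 in the others, Pde2a at 2447 in AM-Veh 2-1 against 2229 to 2262, Sertm1 at 736.7 in AM-Allo 2-1 against 648.4 to 651.7, Cyfip2 at 12150 in AM-Allo 2-1 and Fam131a at 129.5 in AM-Veh 2-2. Among genes that did not pass, Egr4 was at 26.4 in AM-Allo 1-1 against 9.989 to 10.54, Gabra3 at 284.2 in AM-Veh 2-1, Slc12a2 at 2924 in AM-Veh 2-2, Rspo3 at 69.12 in AM-Veh 2-1 and Slc2a3 at 816.3 in AM-Veh 2-2. Ldha was at 10610 in AM-Allo 2-2, Tapbp at 305.3 in AM-Veh 1-1, Rel at 15.67 in AM-Veh 1-2 and Dnah11 at 150.1 in AM-Veh 1-1.

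The Allo effect differed between sets for 12 genes by the interaction in limma. Set 2 minus set 1 was 1.8808 on the log2 scale for LOC100362113, 0.6088 for Ly6h, 0.7113 for Syngr3, which encodes a synaptic vesicle protein, 0.6686 for Pde1a, 0.5181 for Dlg2, 0.6898 for Rnf152, 0.4211 for Zcchc12 and 0.357 for Dpysl5, which encodes a collapsin response mediator protein. It was −0.7181 for Egr1 and −0.3192 for Dmd, which encodes dystrophin. The adjusted p was 0.0388 for each of these 10. LOC100911516 had −3.1897 (adjusted p = 0.0417), and a symbol turned into a date, 4-Mar, had 0.632 (adjusted p = 0.0427).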

How the results depend on the processing

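With the first replicate number as block, 104 genes were called (57 higher, 47 lower), and none of the 104 changed direction under any alternative. With no replicate block 4 were called (1 higher, 3 lower), with 872 genes at an unadjusted p under 0.05, and 91 of the 104 were among these. A block by the whole replicate number called 93, of which 88 were among the 104. Without the trend in limma 1 gene was called (0 higher, 1 lower), and 0 genes differed between sets, with 0 also under quantile normalization, against 12, which rest on an unadjusted count of 1459. Variance-stabilized values with no block, added after seeing the data, called 158 (94 higher), 103 of them shared. Set 1 alone called 34 (14 higher, 20 lower) and set 2 alone 267 (203 higher), so the share of higher calls was 41.2% and 76.0% against 54.8%. Leaving out 1 library gave 37 to 169 calls (14 to 110 higher, 23 to 59 lower) and 1 to 97 genes that differed between sets, the latter without AM-Veh 2-1. The cause of these shifts was not tested.

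The filter, pseudocount, scaling and robust alternatives gave 83 to 108 calls. Over all alternatives, 1491 of 2284 values of called genes stayed past the threshold and 793 did not, and 36 of 1358 values of other named genes passed it. In set 1 alone the log2 fold change turned for Paqr7 (0.0082 against −0.0497), LOC100362113 (−0.873 against 0.0674), Ly6h (−0.2408 against 0.0636) and Dlg2 (−0.143 against 0.116). Without 1 library the log2 fold change of LOC100362113 ranged from −0.1695 to 0.3701 and the log2 fold change of Ly6h from −0.0356 to 0.1575. Of 1078 list medians 157 moved by more than the spread. At low counts, where 1 read is worth about 1 normalized count, small changes were not detectable.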
